A study of Macaca nemestrina with 15 samples.

Results

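Genes of the BCL2 family that keep cells alive or lead them into death were followed in the PBMCs of pig-tailed macaques given ISL. The set comprised 10 genes, taken by name: the pro-survival genes *BCL2*, *BCL2L1*, *MCL1* and *BCL2A1*, and the pro-death genes *BAK1*, *BAD*, *BID*, *BMF*, *PMAIP1* and *BCL2L11*. Rows with these names were found for 9 of the 10 genes among the 28865 features of the count table, 4 pro-survival and 5 pro-death, and all 9 were among the 12880 features tested after the filter on low counts. *PMAIP1*, which encodes the MCL1-binding protein NOXA, was not analysed here.

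Proteins of the BCL2 family decide at the outer membrane of mitochondria whether a cell enters apoptosis. The pro-survival proteins BCL2, BCL-XL (the product of *BCL2L1*), MCL1 and A1 (the product of *BCL2A1*) hold the pore-forming proteins BAK and BAX in check, and the BH3-only proteins BIM (the product of *BCL2L11*), BAD, BID, BMF and NOXA bind the pro-survival proteins and release that hold, after which cytochrome c leaves the mitochondria and caspases are activated. In blood, BCL2 and MCL1 are needed by mature lymphocytes, and BIM is known for removing lymphocytes deprived of cytokines or growth signals. Much of the control of these proteins lies in their binding, cleavage and degradation, which mRNA counts do not measure.

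ISL (islatravir) is a nucleoside analog that blocks HIV reverse transcriptase. All 5 animals were female *Macaca nemestrina* dosed orally with 30 mg/kg of ISL once a week for 12 weeks. Each gave 1 PBMC sample immediately before treatment (pre-treatment, week 0), 1 at week 12 and 1 at week 18. The study's methods place week 18 at 6 weeks after treatment ended. By the study's account of the time points, the comparisons ask whether the expression of these genes differed between pre-treatment and the end of dosing. They also ask whether this expression had moved again after the drug was withdrawn. There were no untreated animals, so the passage of time and ISL cannot be told apart. Bulk PBMC RNA mixes lymphocytes and monocytes, and from it fewer cells of a type and less RNA per cell cannot be told apart either. The study also counted blood cells, and reported fewer B cells, CD8 T cells and monocytes during treatment. By its account monocytes returned to pre-treatment levels afterwards, and B cells did not. Those counts were not used here.

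The 15 libraries held 5610597 to 10379572 counts (median 8871860), and the 2 smallest were the week 12 and week 18 libraries of animal Z15303. Expression is given as CPM, the counts of a gene scaled to a common library size by the TMM method. By the dates that the library names carry, week 12 samples follow the first by 56 or 57 days and week 18 samples by 84 days, although what the dates mark is not stated. They put 27 or 28 days between week 12 and week 18, and a figure legend of the study names an earlier week for the last sample than its methods and labels do, so the true interval after the last dose is uncertain. If the dates mark sampling, 56 or 57 days are also too short for 12 weekly doses before the week 12 samples. On the same reading, 84 days would only just hold 12 weekly doses before the week 18 samples. Whether week 12 was the end of dosing, and whether or how long before week 18 the drug was withdrawn, would then both be uncertain. Animals Z15339, Z15303 and Z15408 share their dates at each time point, Z15228 and Z13076 have dates of their own, and the changes in both sets are given for *BCL2A1*, *BAK1*, *BAD*, *BID*, *BCL2L11* and the balance of the members. Levels are compared between libraries and not between genes, because gene lengths were not at hand.

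Markers of other blood cells moved between the same samples. The summed CPM of 10 B-cell marker genes ranged from 270.0 to 1088 pre-treatment, from 161.7 to 556 at week 12 and from 205.0 to 463 at week 18, and was lower than pre-treatment in 5 of 5 animals at both later time points. The mean log2 change of this sum was −0.80 ± 0.29 (SD, n = 5) at week 12 and −0.81 ± 0.34 at week 18, with −0.01 ± 0.42 between week 12 and week 18. The summed CPM of 9 monocyte marker genes changed by a log2 value of −0.18 ± 0.26 at week 12 and 0.18 ± 0.33 at week 18 relative to pre-treatment, and by 0.36 ± 0.50 from week 12 to week 18, with 4 of 5 animals higher. Those of T-cell markers changed by 0.13 ± 0.15, 0.11 ± 0.22 and −0.02 ± 0.15 on the log2 scale in the 3 comparisons, and those of NK-cell markers by 0.17 ± 0.37, −0.01 ± 0.56 and −0.19 ± 0.28. Granulocyte markers, of which 7 of 9 were in the table and 2 were at 0 in at least 1 library, summed to 197.3 to 613 CPM over all libraries and changed by −0.14 ± 0.51 at week 12 and 0.34 ± 0.37 at week 18 relative to pre-treatment, and by 0.48 ± 0.76 from week 12 to week 18, with 4 of 5 animals higher. The part of these shifts in the changes given below was not tested.

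**Figure D1:**
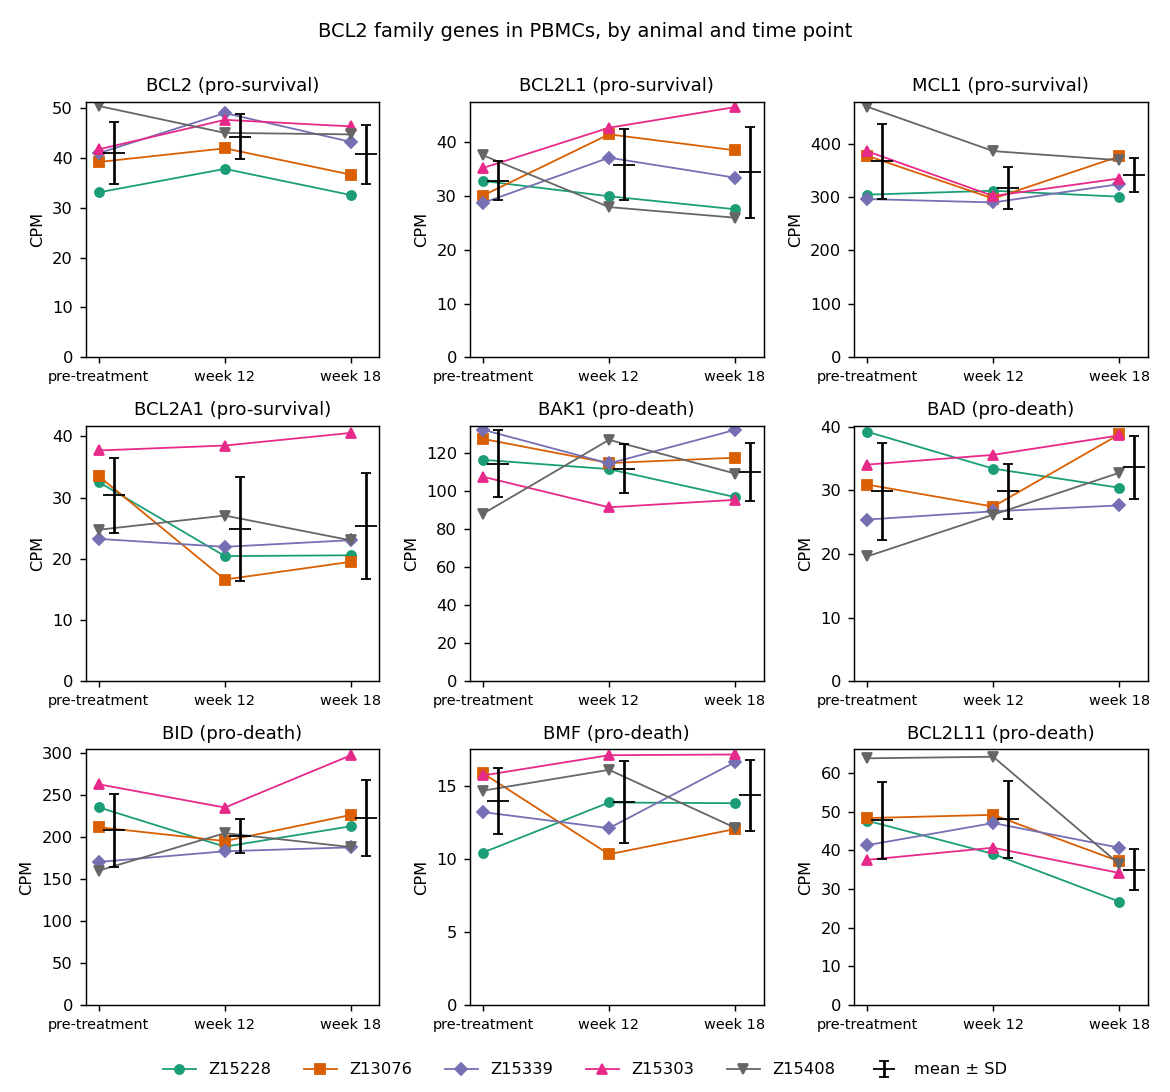
Expression of the 9 BCL2 family genes (CPM, y axis from 0) at pre-treatment, week 12 and week 18, with 1 coloured line and marker per animal and the mean ± SD of the 5 animals in black beside each time point. For most genes the lines cross and the time points overlap, whereas the *BCL2L11* lines of all 5 animals end lower at week 18 than at either earlier time point.

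*BCL2*, the founding member of the family and a survival factor of resting lymphocytes, was measured at 33.1, 39.2, 41.0, 41.8 and 50.5 CPM pre-treatment in Z15228, Z13076, Z15339, Z15303 and Z15408, the order used for every gene below. At week 12 the values were 37.9, 42.0, 49.1, 47.7 and 45.1 CPM, and at week 18 they were 32.6, 36.7, 43.3, 46.4 and 44.8 CPM. Values rose and fell by little within an animal, and the 3 time points overlapped widely. The mean was 41.1 ± 6.24 CPM (SD, n = 5) pre-treatment, 44.3 ± 4.53 CPM at week 12 and 40.7 ± 5.86 CPM at week 18. The log2 fold change was 0.11 (SE 0.13) at week 12 and −0.01 (SE 0.13) at week 18 relative to pre-treatment, and −0.12 (SE 0.13) between week 12 and week 18. Between the last 2 time points *BCL2* was lower in 5 of 5 animals, by small within-animal log2 changes of −0.21 to −0.01, and this difference did not pass the test.

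*BCL2L1*, whose protein BCL-XL also keeps platelets and red cell precursors alive, stood at 32.8, 30.1, 28.7, 35.2 and 37.6 CPM pre-treatment. At week 12 it stood at 30.0, 41.5, 37.2, 42.7 and 28.0 CPM, and at week 18 at 27.6, 38.5, 33.4, 46.6 and 26.0 CPM. The animals went separate ways: Z13076, Z15339 and Z15303 were above their pre-treatment level at both later time points, and Z15228 and Z15408 were below it. In mean terms the level was 32.9 ± 3.64, 35.9 ± 6.67 and 34.4 ± 8.42 CPM at the 3 time points. The log2 fold change was 0.12 (SE 0.17) at week 12 and 0.06 (SE 0.17) at week 18, within a range of single animals from −0.53 to 0.46. Summed platelet markers moved in the same direction as *BCL2L1* in all 5 animals from pre-treatment to week 18, by −0.36, 0.30, 0.23, 0.55 and −0.31 on the log2 scale in the animal order given above. At week 12 they changed by −1.16, 1.22, 0.44, 0.27 and 0.03, in the same direction as *BCL2L1* in 4 of 5 animals, all but Z15408. From week 12 to week 18 platelet markers moved opposite to *BCL2L1* in Z15228, by 0.80 against −0.12. Red cell markers, of which 3 of 8 were in the table, changed by −1.20, −0.77, 0.98, −0.08 and −0.70 at week 12. At week 18 they changed by −2.39, 2.32, 0.10, −1.82 and −0.70 relative to pre-treatment. They went opposite to *BCL2L1* in Z13076 and Z15303 at week 12 and in Z15303 at week 18. The part of platelets and red cells in the *BCL2L1* values was not tested.

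*MCL1* encodes a short-lived survival protein required by lymphocytes, and its values carried the smallest counting error of the 9 genes, with 1640 to 4119 counts per library. Pre-treatment it was measured at 304.6, 377.4, 296.3, 385.9 and 469.4 CPM. Week 12 values were 311.9, 297.2, 290.0, 302.1 and 386.2 CPM, and week 18 values were 300.8, 376.1, 324.2, 334.8 and 369.1 CPM. At week 12, 4 of the 5 libraries lay within 290.0 to 311.9 CPM, a range that the pre-treatment values of Z15228 and Z15339 also occupied, and the fifth, from Z15408, lay above it. Relative to pre-treatment *MCL1* was lower in 4 of 5 animals at each later time point. Some of these within-animal log2 changes were close to 0: −0.03 in Z15339 at week 12, and −0.02 in Z15228 and −0.005 in Z13076 at week 18. The log2 fold change was −0.21 (SE 0.13, 95% interval −0.49 to 0.08) at week 12 and −0.10 (SE 0.13) at week 18, and neither passed the test. With the animal as a block the values were −0.20 (SE 0.105, 95% interval −0.42 to 0.02) and −0.09 (SE 0.105). Those did not pass either. In folds, the week 12 interval without the block runs from 0.711 to 1.05.

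*BCL2A1*, a target of NF-kappa-B expressed in activated B cells and myeloid cells, had the widest spread of the pro-survival genes, a 2.44-fold range over the 15 libraries. Its pre-treatment values were 32.5, 33.5, 23.2, 37.7 and 24.7 CPM. They were 20.4, 16.6, 21.9, 38.5 and 27.1 CPM at week 12, and 20.6, 19.5, 23.0, 40.6 and 23.0 CPM at week 18. Z15228 and Z13076 accounted for most of the lower mean, and Z15303 kept the highest value at each time point. The within-animal log2 change at week 12 was −0.66 in Z15228 and −1.002 in Z13076, against −0.08, 0.03 and 0.13 in Z15339, Z15303 and Z15408. The latter 3 animals, which share their dates, averaged 0.03 at week 12 and 0.00 at week 18, whereas the other 2 averaged −0.83 and −0.71. Over all animals the log2 fold change was −0.29 (SE 0.24) at week 12 and −0.27 (SE 0.24) at week 18, or −0.33 (SE 0.16, 95% interval −0.66 to 0.00) and −0.31 (SE 0.16) with the animal as a block, and none of the 4 values passed. In the same animal order, summed B-cell markers changed by −0.97, −0.74, −1.20, −0.58 and −0.51 at week 12, and summed monocyte markers by −0.23, −0.60, 0.03, −0.13 and 0.03. Summed granulocyte markers changed by −0.11, −0.96, 0.08, 0.42 and −0.15. Z13076, with the largest drop in *BCL2A1*, also had the largest drops in monocyte and granulocyte markers at week 12. At week 18 relative to pre-treatment, *BCL2A1* changed by −0.655, −0.77, −0.01, 0.11 and −0.10 in that order. Summed B-cell markers then changed by −1.23, −0.40, −0.70, −1.08 and −0.62. Monocyte markers changed by 0.51, 0.40, 0.23, −0.33 and 0.07, and granulocyte markers by 0.44, 0.59, 0.75, −0.10 and −0.01. The part of these cells in the *BCL2A1* values was not tested.

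*BAK1* encodes the pore-forming protein BAK, the effector that acts after the BH3-only proteins. Before treatment it was measured at 116.3, 127.3, 132.1, 107.4 and 88.0 CPM. At week 12 the values were 111.4, 114.6, 114.4, 91.4 and 126.8 CPM, and at week 18 they were 96.7, 117.4, 132.0, 95.3 and 109.1 CPM. This was the steadiest gene of the 9, with a 1.501-fold range over the 15 libraries, and at each later time point 4 of 5 animals were below their pre-treatment level, Z15339 at week 18 by less than 0.01 on the log2 scale, and Z15408 was above it. The log2 fold changes were −0.03 (SE 0.13) at week 12 and −0.05 (SE 0.13) at week 18, with a week 18 interval of −0.33 to 0.23. The mean change at week 18 was 0.05 in the animals with shared dates and −0.19 in the others.

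Among the BH3-only genes, *BAD*, whose protein binds BCL2 and BCL-XL and is switched off by growth factor signaling, was measured at 39.2, 30.9, 25.4, 34.0 and 19.6 CPM pre-treatment. It stood at 33.4, 27.4, 26.7, 35.6 and 26.2 CPM at week 12, and at 30.4, 38.8, 27.6, 38.6 and 32.7 CPM at week 18. Level means were 29.8 ± 7.59, 29.8 ± 4.32 and 33.6 ± 4.96 CPM, and the week 18 values all lay inside the pre-treatment range of 19.6 to 39.2 CPM. Relative to pre-treatment, *BAD* at week 18 had a log2 fold change of 0.17 (SE 0.17), was higher in 4 of 5 animals, and the single animals ran from −0.36 in Z15228 to 0.73 in Z15408. In the animals with shared dates the mean change of *BAD* was 0.18 at week 12 and 0.34 at week 18, and in the others it was −0.20 and −0.02.

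*BID* links death receptors to mitochondria, since its protein is cleaved by the caspase that those receptors activate. Its values were 235.6, 212.0, 170.6, 263.1 and 160.3 CPM pre-treatment, 188.8, 195.5, 183.3, 235.4 and 204.9 CPM at week 12, and 213.1, 226.6, 188.0, 297.7 and 188.3 CPM at week 18. Z15303 had the highest *BID* value at each time point, so the animals kept part of their order while the time points overlapped. Changes were −0.05 (SE 0.16) at week 12 and 0.10 (SE 0.16) at week 18 relative to pre-treatment on the log2 scale, and 0.14 (SE 0.16) between the later time points, the last with 4 of 5 animals higher. With the animal as a block they were −0.03, 0.10 and 0.12 (SE 0.11 each). Relative to pre-treatment, *BID* changed on average by 0.10 and 0.18 in the animals with shared dates, and by −0.22 and −0.02 in the others.

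*BMF*, a BH3-only gene known for death after loss of attachment and in B cells, had the fewest counts of the 9, 86 to 161 per library, so that counting alone gives an error of 7.88% to 10.8%. The values ran from 10.5 to 15.9 CPM pre-treatment, from 10.3 to 17.1 CPM at week 12 and from 12.1 to 17.2 CPM at week 18. No shift between time points was seen in them: the log2 fold changes were −0.01, 0.04 and 0.05 (SE 0.18 each) for week 12 and week 18 relative to pre-treatment and for week 18 relative to week 12. The 95% interval of the week 18 fold relative to pre-treatment ran from 0.792 to 1.33.

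*BCL2L11*, the gene of BIM, was the member with the largest difference, and the difference lay at week 18. Pre-treatment it was measured at 47.7, 48.4, 41.4, 37.6 and 63.8 CPM, and at week 12 at 39.1, 49.2, 47.1, 40.7 and 64.2 CPM. At week 18 it was measured at 26.8, 37.2, 40.7, 34.2 and 36.5 CPM. The first 2 time points were alike in mean and spread, 47.8 ± 10.04 and 48.1 ± 9.98 CPM, while the week 18 mean was 35.1 ± 5.19 CPM. Of the 5 week 18 values 4 lay below the lowest value of both earlier time points, and the fifth, 40.7 CPM in Z15339, lay above those lowest values, so the groups overlapped.

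Relative to pre-treatment, the log2 fold change of *BCL2L11* at week 18 was −0.45 (SE 0.17, 95% interval −0.80 to −0.09), a 0.735-fold level. Relative to week 12 it was −0.46 (SE 0.17, 95% interval −0.81 to −0.10), a 0.729-fold level. Both fitted intervals lie below 0, and in both comparisons all 5 animals were lower at week 18. Single animals changed by −0.83, −0.38, −0.02, −0.14 and −0.80 from pre-treatment and by −0.54, −0.40, −0.21, −0.25 and −0.81 from week 12. After adjustment over the 12880 features neither comparison passed, with an adjusted p of 1 relative to pre-treatment and 0.9997 relative to week 12 by edgeR's quasi-likelihood test with Benjamini-Hochberg adjustment. When animals were blocked, the log2 fold change was −0.44 (SE 0.13) in both, with an adjusted p of 0.464 and 0.9998, so that test was not passed either.

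Sorted by unadjusted p, *BCL2L11* ranked 55th of the 12880 features for week 18 relative to pre-treatment and 11th relative to week 12, or 86th and 14th in the blocked fit. It was the only one of the 9 genes with an unadjusted p under 0.05, in both week 18 comparisons and in both fits. Over all features, 1.08% were lower with an unadjusted p under 0.05 in the first comparison and 0.225% in the second, or 3.78% and 1.01% with the block. The difference from pre-treatment was −0.34 in the animals with shared dates and −0.59 in the others, and without Z15408, which had the highest values at both earlier time points, it was −0.33. For week 18 relative to week 12 the value without Z15408 was −0.34. Both comparisons share the week 18 libraries and are not independent. From week 12 to week 18 the summed monocyte and granulocyte markers were each higher in 4 of 5 animals, as given above. In the animal order used for every gene, monocyte markers changed by 0.74, 1.005, 0.20, −0.20 and 0.04. Granulocyte markers changed by 0.56, 1.546, 0.67, −0.52 and 0.14. The part of these cells in the *BCL2L11* difference was not tested. At week 12 itself, under ISL, the log2 fold change of *BCL2L11* was 0.01 (SE 0.17, 95% interval −0.34 to 0.36), with a mean of 0.10 in the animals with shared dates and −0.13 in the others.

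**Figure D2:**
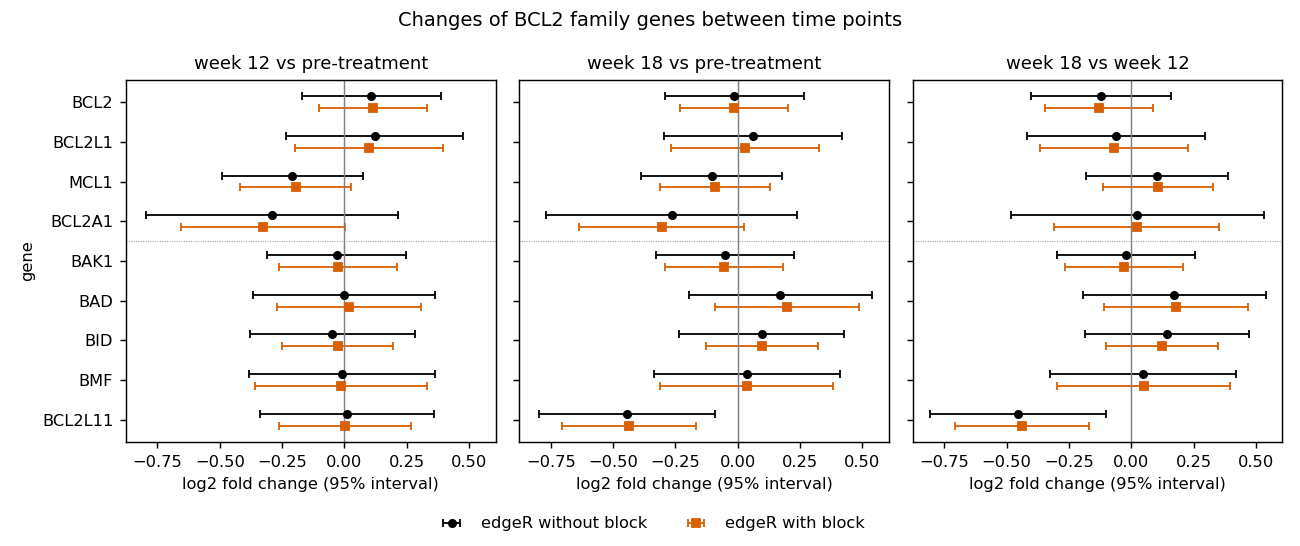
Log2 fold changes of the 9 genes with 95% intervals in the 3 comparisons, from edgeR's quasi-likelihood fit without a block (black circles) and with the animal as a block (orange squares), the dotted line dividing pro-survival from pro-death genes. Only the *BCL2L11* intervals at week 18, from −0.80 to −0.09 relative to pre-treatment and from −0.81 to −0.10 relative to week 12, lie wholly below 0, and neither passed the test after adjustment.

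None of the 9 genes passed an adjusted p of 0.05 in any comparison, with or without the block, while over all features the share called by edgeR without the block was 0% in each comparison. With the block it was 0.00776% at week 12 and 0.00776% at week 18 relative to pre-treatment, which was a single feature, the immunoglobulin segment *IGKV1OR2.108*, and 0% between week 12 and week 18. This feature is named because it was the only call, after its value was seen. No member was lower in 5 of 5 animals at week 12 (3.46% of all features were), 1 was at week 18 relative to pre-treatment (3.49%), and 2, *BCL2* and *BCL2L11*, were at week 18 relative to week 12 (2.87%). None was higher in 5 of 5 animals in the same comparisons, against 2.24%, 3.04% and 2.97% of all features. For no member did the values of any pair of time points fail to overlap, which was the case for 0.28%, 0.334% and 0.109% of all features.

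The median log2 fold change of the 4 pro-survival genes was −0.05 at week 12 and −0.06 at week 18 relative to pre-treatment, and −0.02 between the later time points. For the 5 pro-death genes it was −0.01, 0.04 and 0.05. Over all features tested the median was 0.00 in each comparison. The members were spread about these medians from −0.29 to 0.12 at week 12, and from −0.45 to 0.17 at week 18 relative to pre-treatment.

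A per-animal balance was formed as the mean log2 CPM of the 4 pro-survival genes minus that of the 5 pro-death genes. Because CPM is not scaled by gene length, the balance is compared only within an animal. Pre-treatment it was 0.04, 0.11, 0.09, 0.27 and 0.51 in the animal order given above, at week 12 it was −0.01, 0.11, 0.21, 0.32 and 0.03, and at week 18 it was 0.04, 0.07, 0.08, 0.35 and 0.18. In 4 animals the balance stayed within 0.13 of its pre-treatment value, and Z15408 alone moved further, by −0.47 at week 12 and −0.33 at week 18. The mean change was −0.07 ± 0.23 (SD, n = 5) at week 12, higher in 3 animals and lower in 2, and −0.06 ± 0.16 at week 18, higher in 2 and lower in 3. Without Z15408 these means were 0.04 and 0.01, and without *BCL2A1* among the pro-survival genes they were 0.02 and 0.01, so their sign rested on 1 animal and on 1 gene. In the animals with shared dates they were −0.10 and −0.09, and in the others −0.02 and −0.02. Between week 12 and week 18 the mean change was 0.01 ± 0.10. Leaving *BCL2L11* out of the pro-death genes gave −0.06, −0.16 and −0.10 in the 3 comparisons.

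The pre-treatment library of Z15408, from which both of its changes are measured, held the highest value of its time point for 4 genes (*BCL2*, *BCL2L1*, *MCL1* and *BCL2L11*) and the lowest for 3 (*BAK1*, *BAD* and *BID*), 7 of 9 in all, where the other pre-treatment libraries were at either end for 1 to 4 genes. At week 12 and at week 18 the libraries of Z15303 were at either end for 6 of 9 genes each, and at week 12 that of Z15408 was for 5. In the pre-treatment library of Z15408, 16556 features were detected, more than in any of the others, and its TMM factor of 1.11 was the highest. From this library, summed NK-cell markers changed by log2 values of 0.74 at week 12 and 0.90 at week 18. The other animals ran from −0.13 to 0.36 and from −0.57 to 0.02. T-cell markers of Z15408 changed by 0.35 and 0.46, the highest of the 5 animals. Its B-cell markers changed by −0.51 and −0.62, and its monocyte markers by 0.03 and 0.07. The part of this library and of these cells in the values was not tested beyond leaving the animal out.

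**Figure D3:**
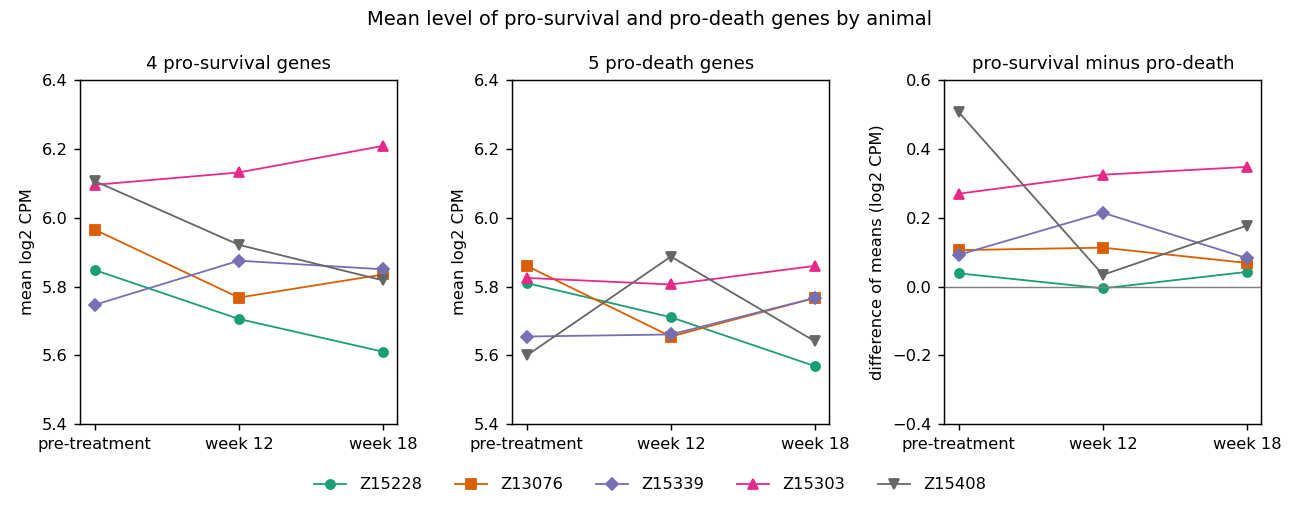
Mean log2 CPM of the 4 pro-survival genes (left), of the 5 pro-death genes (middle) and their difference (right) by time point, with 1 line per animal. The difference stayed close to its pre-treatment value in 4 animals and dropped by 0.47 at week 12 in Z15408 alone.

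Pairing each pro-survival gene with each pro-death gene gave 20 log2 ratios per comparison, which share their genes and are described without a test. At week 12 none was higher in 5 of 5 animals and 1 was lower in all, *BCL2A1* to *BAD* with a mean change of −0.35 ± 0.31. At week 18 relative to pre-treatment 2 were higher in all animals, both with *BCL2L11* below the line: *BCL2* to *BCL2L11* by 0.42 ± 0.29 and *BCL2L1* to *BCL2L11* by 0.47 ± 0.21. In that comparison 2 were lower in all animals, *BCL2A1* to *BAD* by −0.49 ± 0.45 and *BCL2A1* to *BID* by −0.39 ± 0.32. At week 18 relative to week 12 the ratio of every pro-survival gene to *BCL2L11* was higher in 5 of 5 animals, from 0.32 ± 0.29 for *BCL2* to 0.55 ± 0.18 for *MCL1*. The ratio of *BCL2* to *BAD* was lower in all animals there, by −0.30 ± 0.24.

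The wider pathway was described by 58 further genes in 5 lists, of which 50 were in the table and 46 were tested. None of the 46 passed an adjusted p of 0.05 in any comparison, with or without the block. Their median log2 fold change was −0.01 at week 12 and −0.02 at week 18 relative to pre-treatment, and 0.01 between the later time points. At an unadjusted p under 0.05 there were 2 of the 46 at week 12, 2 at week 18 relative to pre-treatment and none between the later time points, where the shares of all features were 1.61%, 1.69% and 0.505%. With the block there were 2, 7 and 1 of the 46, where the shares of all features were 4.69%, 5.85% and 2.17%. The 7 were *BBC3*, *ENDOG* and *TNFRSF1A*, which were higher, and *FAS*, *CASP10*, *CFLAR* and *REL*, which were lower. Counted by animals, 2 of the 46 were higher and 2 lower in 5 of 5 at week 12, 3 and 6 at week 18 relative to pre-treatment, and 3 and 1 between the later time points, to be read against the shares of all features given above for the members.

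Other BCL2 family genes, 7 of 14 tested, had medians of 0.01, 0.03 and 0.05 in the 3 comparisons. *BBC3*, the gene of the p53-induced BH3-only protein PUMA, was measured at 21.0 ± 3.37 CPM pre-treatment, 23.6 ± 3.95 CPM at week 12 and 26.9 ± 2.55 CPM at week 18. At week 18 its log2 fold change was 0.36 (SE 0.14) relative to pre-treatment, higher in 4 of 5 animals, and 0.19 (SE 0.14) relative to week 12, higher in 5 of 5. The first of these values was chosen after it was seen, for its unadjusted p under 0.05. *BCL2L13*, a mitochondrial family member, was higher in 5 of 5 animals at week 18, its log2 fold change being 0.12 (SE 0.20).

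Of the caspase cascade that acts after mitochondria, 12 of 16 genes were tested, with medians of 0.00, 0.05 and 0.02. *ENDOG*, the gene of a mitochondrial endonuclease, was higher in 5 of 5 animals at both later time points. Its values ran from 45.9 to 57.8 CPM pre-treatment, from 60.0 to 67.2 CPM at week 12 and from 58.6 to 67.7 CPM at week 18, so neither later time point overlapped with the first, as was the case for 1 of the 46 genes in each comparison and for 0.28% and 0.334% of all features. The log2 fold change was 0.24 (SE 0.09) in both comparisons with an adjusted p of 1 in each by edgeR, which is not a pass. *CASP9*, the initiator caspase of this pathway, was higher in 5 of 5 animals at week 18, by 0.12 (SE 0.17) on the log2 scale. With the animal as a block the value was 0.12 (SE 0.10).

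Genes of the death receptor pathway, all 12 tested, had medians of 0.04, −0.01 and −0.01. *FAS*, a death receptor of lymphocytes, was lower in 5 of 5 animals at week 12, 39.8 ± 7.47 against 34.3 ± 6.61 CPM. Its log2 fold change was −0.21 (SE 0.19), or −0.22 (SE 0.105) with the animal as a block. *FADD*, the adaptor of *FAS*, was higher in 5 of 5 with 0.20 (SE 0.13), the smallest within-animal log2 change being 0.03. At week 18 relative to pre-treatment *CASP10*, *CFLAR* and *RIPK1* were lower in 5 of 5 animals. Their within-animal log2 changes nearest 0 were −0.008, −0.05 and −0.04. *CASP10*, an initiator caspase, was at 51.9 ± 4.31 and 44.2 ± 6.30 CPM, a log2 fold change of −0.23 (SE 0.13). It was also lower in 5 of 5 relative to week 12, by −0.25 (SE 0.13) on the log2 scale. *CFLAR*, whose protein blocks the receptor caspases, was at 137.7 ± 8.20 and 120.5 ± 14.9 CPM, a log2 fold change of −0.19 (SE 0.12). *TNFRSF1A*, a receptor for TNF, was higher in all 5 animals at the last time point relative to week 12, by 0.19 (SE 0.13).

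Inhibitors of apoptosis were tested for 5 of 6 genes, with medians of −0.11, −0.09 and −0.02. *NAIP* was the one named by the rule, higher in 5 of 5 animals at week 18 relative to week 12, at 3.86 ± 3.35 and 5.55 ± 4.95 CPM, and its log2 fold change of 0.52 had an SE of 0.90. Transcription factors that regulate members, 10 of 10 tested, had medians of −0.06, −0.07 and −0.04. *REL*, the NF-kappa-B subunit c-Rel that activates *BCL2A1* and *BCL2L1* in lymphocytes, was lower than pre-treatment in 5 of 5 animals at both later time points. It was at 28.2 ± 6.15 CPM pre-treatment, 21.2 ± 4.99 CPM at week 12 and 22.4 ± 5.05 CPM at week 18. The log2 fold changes were −0.42 (SE 0.19) and −0.34 (SE 0.19), each with an adjusted p of 1 by edgeR, or 0.569 and 0.746 with the block. *NFKB2* was lower in 5 of 5 animals at week 18 with −0.21 (SE 0.14). B-cell markers were lower in the same 5 animals, and their part in the values of *REL* and *NFKB2* was not tested.

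**Figure D4:**
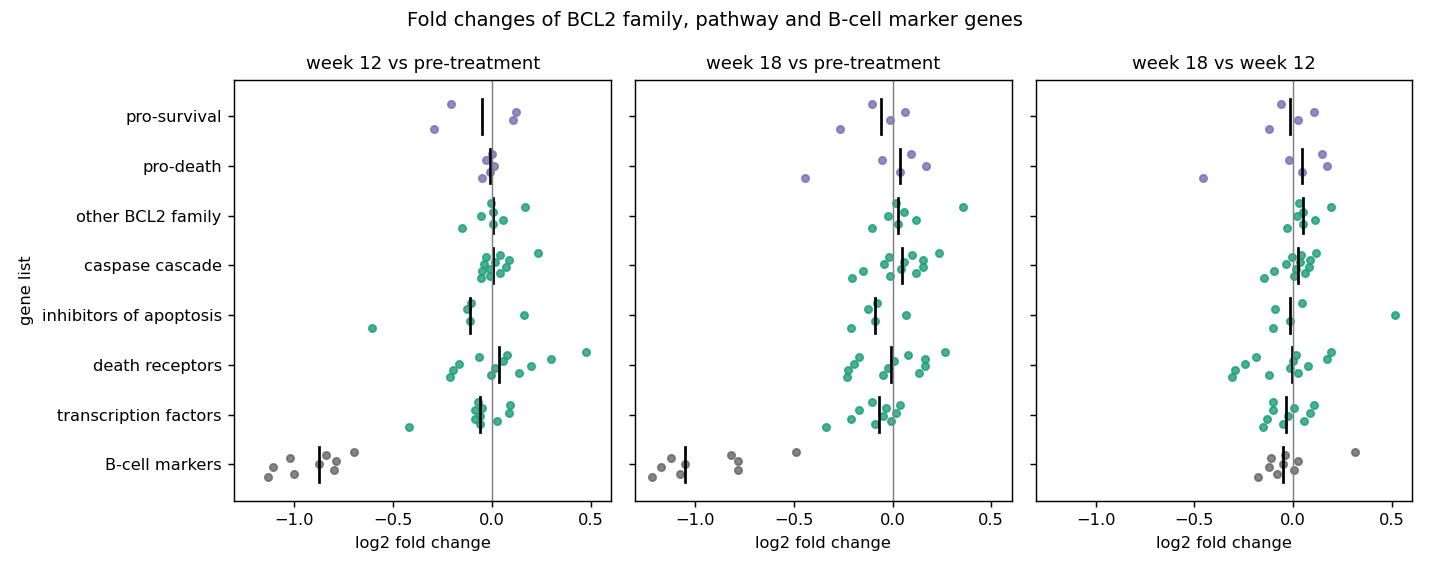
Log2 fold changes (x axis) of each tested gene, 1 point per gene, in the 4 pro-survival and 5 pro-death genes, the 5 pathway lists and the B-cell markers, in the 3 comparisons, with black lines at the list medians. Medians of the BCL2 family and pathway lists lie between −0.11 and 0.05 in all 3 panels, whereas the 9 B-cell markers tested have medians of −0.87 at week 12 and −1.05 at week 18 relative to pre-treatment, and of −0.05 between week 12 and week 18.

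The genes whose log2 CPM followed each member most closely over the 15 libraries were sought among 10773 tested gene symbols by Pearson's r. As 15 libraries come from 5 animals and share depth and cell mix, r is a description. *BID* and *BAD* had the closest companions, *FKBP1A* (r = 0.954) and *SELENOF* (r = 0.941). *BCL2* was followed by *ST8SIA5* (0.909), *BCL2A1* by *CTDNEP1* (0.890) and *POU2F2* (0.883), the latter a transcription factor of B cells, and *BAK1* by *CHPF* (0.889) and the chemokine receptor gene *CXCR3* (0.866). For *BCL2L11* the highest value was that of *PDZD8* (0.871), ahead of *RINL* (0.835). *BCL2L1* was followed by *TCP11L2* (0.852), *MCL1* by *SCARB2* (0.851) and *BMF* by *ZNF609* (0.832). No member was among the 3 genes most like another member.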

How the data were processed

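RNA-seq was made from PBMCs of 5 animals at 3 time points. The authors prepared libraries with SMART-Seq v4 and Nextera XT, aligned reads with STAR 2.7.9a to *M. nemestrina*, and deposited raw gene counts without normalization; the strand setting is not given in the sources used here. Genes sharing sequence with close copies were taken as counted. Columns of the table were assigned to animals and time points by their names.

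Counts were analysed in R 4.3.3 with edgeR 4.0.16: TMM scaling, filterByExpr with a minimum count of 10, and the quasi-likelihood F test on all 15 libraries with time point as the only term. P-values were adjusted over 12880 features by Benjamini-Hochberg, with a threshold of 0.05. SE was taken from the fold change and its F statistic (size over root F). Log2 CPM used a prior count of 2, within-animal changes are differences of it, and n is the number of animals. The script was tested on simulated data. Counting errors cover counting only. The depth of 5610597 to 10379572 counts per library sets the precision.

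Libraries of 1 animal come from the same animal by name. They deviated together from the time point means (mean r 0.551, lowest 0.351, over 15 pairs). Between different animals at different time points the mean r was −0.137, a value that centring on the time point means pushes below 0. The fit with the animal as a replicate block is therefore given for some genes. SE and intervals given without naming the block are from the fit without it, where differences between animals enter the spread. The biological coefficient of variation was 29.3% without the block and 16.9% with it. Alternatives were DESeq2 1.42.0, limma 3.58.1 (voom), the block, other scalings and filters, and leaving out animals.

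The 10 members, the pathway lists and the marker lists were chosen with earlier results of these data known, and support no finding by themselves. Pathway genes are named where they were among the 3 largest changes of their list that went the same way in 5 of 5 animals, and the 3 symbols most correlated with each member were sought. A result for an item withheld for evaluation is not reported here.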

Additional observations from a re-analysis of the deposited data

Results flagged for a closer look

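Of 60 sets of 5 values or changes examined for the members and the balance, 6 had an animal whose distance from the nearest other exceeded 0.71 of the whole range (Dixon's criterion), where chance gives about 3. *MCL1* at week 12 was 386.2 CPM in Z15408 against 290.0 to 311.9 CPM in the other animals, and Z15408 was also the highest animal pre-treatment. *BCL2A1* at week 18 was 40.6 CPM (40.55) in Z15303 against 19.5 to 23.0 CPM, in 1 of the 2 smallest libraries. The log2 change of *BCL2L1* from week 12 to week 18 was 0.12 in Z15303 against −0.15 to −0.10 in the others. The log2 change of *BAK1* at week 12 was 0.53 in Z15408 against −0.23 to −0.06. The pro-survival minus pro-death balance of Z15408 changed by −0.47 at week 12, against −0.04 to 0.12, and by −0.33 at week 18 relative to pre-treatment, against −0.04 to 0.08. The last 2 values and that of *BAK1* share the pre-treatment library of Z15408.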

How the results depend on the processing

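None of the 9 members passed in any of the 16 alternatives. Of 432 alternative values of the 27 log2 fold changes, 376 kept their sign, 25 were 0.00 in either fit and 31 had the other sign; the cause was not tested. In the 3 animals with shared dates only, the values of the other sign were 0.04 (*BCL2A1*), 0.04 (*BAK1*), 0.08 (*BID*) and 0.07 (*BMF*) at week 12, 0.03 (*BCL2*), 0.02 (*BCL2A1*) and 0.05 (*BAK1*) at week 18 relative to pre-treatment, and −0.02 (*BCL2A1*) and 0.02 (*BAK1*) between the later time points. In the other 2 animals they were −0.12 (*BCL2L11*) at week 12 and −0.02 (*BAD*), −0.03 (*BID*) and −0.03 (*BMF*) at week 18 relative to pre-treatment. Library totals without TMM gave −0.01 for *BCL2L11* at week 12. Leaving out each animal in turn gave values of both signs at week 12 for *BAK1* (−0.16 to 0.02), *BID* (−0.13 to 0.03), *BMF* (−0.09 to 0.13), *BCL2L11* (−0.03 to 0.09) and *BAD* (−0.07 to 0.08, 0.00 with all animals). It did so at week 18 relative to pre-treatment for *BCL2* (−0.05 to 0.04), *BCL2L1* (−0.04 to 0.20), *BAK1* (−0.13 to 0.01) and *BMF* (−0.04 to 0.14), and relative to week 12 for *BCL2A1* (−0.01 to 0.09), *BAK1* (−0.09 to 0.03) and *BMF* (−0.06 to 0.16). *BCL2L11* ranged from −0.55 to −0.33 and from −0.52 to −0.34 in the week 18 comparisons. With *BCL2L11* left out, chosen after seeing the data, the changes in balance in the 3 comparisons were −0.0623, −0.160 and −0.0976, and with *BCL2A1* left out 0.0157, 0.00781 and −0.00792, against −0.0662, −0.0588 and 0.00739 with all members.

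With the animal as a replicate block, log2 fold changes of *BCL2L11* at week 18 were −0.44 and −0.44, and the paired fit changed no call of a member. Over all features, edgeR without the block called 0 in each comparison (207, 218 and 65 at an unadjusted p under 0.05), with the block 1, 1 and 0, limma-voom 0, DESeq2 without the block 1, 0 and 0, and DESeq2 with the block 27, 50 and 8, none of them a member. The lowest adjusted p of *BCL2L11* over the alternatives was 0.371, by DESeq2 with the block at week 18 relative to pre-treatment, and the highest was 1. Depth limits *BMF* most, at 86 counts in its lowest library.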
